A study of Mus musculus with 30 samples.

Results

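The contractile genes of smooth muscle were examined in total RNA from kidneys of the inbred mouse strain C57BL/6. The members were Tagln, Acta2, Tpm1, Tpm2, Myl9, Myh11 and Cnn1, 7 genes grouped by their function, and every probe set that the array annotation assigns to them was taken. The genes were chosen with earlier results of these data known. For 6 of the 7 genes the annotation names 1 probe set each, so that 6 of the 6137 named genes and 6 of the 13179 probe sets on the 2 array types are described, and Myl9 was matched to no probe set and was not analysed here. The 3 groups were mice on calorie restriction, a diet of reduced food intake, at 30 months of age, mice on the control diet at the same age (old controls), and mice on the control diet at 5 months (young controls), with 5 numbered samples in each group. Each number was hybridised to a letter A and a letter B array, 30 samples in all, and the titles tie the arrays together. Nothing in the labels states that each number is an individual mouse, so although the word animal is used for a number, p-values cover the spread between these samples only, which may be technical.

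Smooth muscle cells wrap the renal arteries and arterioles and set the width of these vessels. Thin filaments of alpha smooth muscle actin, encoded by Acta2 and lined by the tropomyosins Tpm1 and Tpm2, slide against filaments of the smooth muscle myosin heavy chain Myh11, whose motor is switched on through the regulatory light chain Myl9. Transgelin (Tagln) and calponin (Cnn1) bind the actin filament, and calponin restrains the motor. Acta2 is also made by pericytes and by the myofibroblasts of scarring kidney, and Tpm1 products are found in many non-muscle cells. In bulk RNA of a whole kidney, a change in the number of such cells and a change in RNA per cell cannot be told apart.

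Many smooth muscle genes are switched on by serum response factor, which binds a short element called the CArG box. The stretches from 250 bases before to 50 bases after the start used by RefSeq (GRCm38.p6) are shown for the 3 genes that were above background and for which a promoter was listed, because a shared element is the textbook link between these genes. They are Acta2 at chr19:34255324-34255623 (minus strand), Tpm1 at chr9:67049164-67049463 (minus strand) and Cnn1 at chr9:22099003-22099302 (plus strand). Capitals mark a CArG box with at most 1 G or C among its 6 middle letters. A stretch that meets this pattern on 1 strand also meets it on the other, though the letters can differ.
Acta2: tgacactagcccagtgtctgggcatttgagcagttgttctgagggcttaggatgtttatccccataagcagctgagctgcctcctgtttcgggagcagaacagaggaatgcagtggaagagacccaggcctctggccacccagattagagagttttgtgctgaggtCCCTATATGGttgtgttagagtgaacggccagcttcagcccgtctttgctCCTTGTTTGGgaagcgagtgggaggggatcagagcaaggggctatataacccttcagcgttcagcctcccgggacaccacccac
Tpm1: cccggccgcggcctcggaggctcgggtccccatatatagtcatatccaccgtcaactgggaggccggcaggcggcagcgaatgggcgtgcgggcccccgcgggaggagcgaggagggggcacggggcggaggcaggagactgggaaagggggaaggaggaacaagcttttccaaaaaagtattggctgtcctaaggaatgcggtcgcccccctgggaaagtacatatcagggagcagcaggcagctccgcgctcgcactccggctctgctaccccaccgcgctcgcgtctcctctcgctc
Cnn1: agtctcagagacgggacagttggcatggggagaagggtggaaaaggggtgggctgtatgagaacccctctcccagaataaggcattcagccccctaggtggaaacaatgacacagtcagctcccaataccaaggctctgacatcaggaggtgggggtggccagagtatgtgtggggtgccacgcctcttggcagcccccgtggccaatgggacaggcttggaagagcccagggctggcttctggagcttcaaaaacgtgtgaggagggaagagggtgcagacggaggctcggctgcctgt
The Acta2 stretch holds 2 such boxes, CCCTATATGG and CCTTGTTTGG, each with 1 substitution, with first bases at -84 and -34 relative to the start. Of the 32851 RefSeq stretches of the same 300 bases, 9.98% hold at least 1 such box and 0.822% hold at least 2. The box without any substitution is in 1.63% of them and in none of the 3 shown. No match says only that these letters are not in this window. The Myl9 stretch, which is not printed since Myl9 had no probe set, holds 2 boxes, 1 of them without substitution. That of Tpm2 holds none. A match is a description of the sequence and was not tested for binding here.

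The intensities are on a linear scale, scaled per array, and a background floor was set for each table at the root mean square of its negative values, 1103 for letter A and 1815 for letter B. Above this floor lay 33.5% to 37.5% of the values of a letter A array and 24.0% to 27.8% of a letter B array. A probe set was tested if it was above the floor on at least 5 arrays, which left 4518 probe sets. The number of arrays limits the precision.

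Some arrays stood apart. Wherever both were given, the arrays of numbers 4 and 5 differed from those of numbers 1 to 3 in the control probe sets for the ends of pyruvate carboxylase RNA, which are blank on letter A arrays of young controls 4 and 5. The ratio of the 3′ to the 5′ signal was 6.38 to 12.7 in numbers 4 and 5, where it was given on 10 arrays, against 2.10 to 4.13 in numbers 1 to 3. Gapdh gave 1.09 to 2.05 and 0.934 to 1.13, ranges that overlap, and calorie-restricted animal 5 had the highest value. Beta actin ratios overlapped too. They were 1.32 to 1.86 in numbers 4 and 5 and 1.08 to 1.34 in numbers 1 to 3 on letter A arrays. On letter B arrays they were 1.12 to 1.88 and 0.919 to 1.41. The labels do not record what the number sets are, so values within each set stand beside the results below. In the letter B table, rows of targets with several probe sets of the suffixes i, f, s or r did not keep their level between old and young controls (Pearson r of group means -0.20 across 85 tested rows). The Acta2 probe set is not among them. It belongs to the 957 tested rows with the suffix s that are alone for their target, for which r was 0.96 across rows, the same as for 1553 suffix s rows of the letter A table. Rows are not independent replicates, and this check concerns the rows together, not Acta2 by itself.

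**Figure D1:**
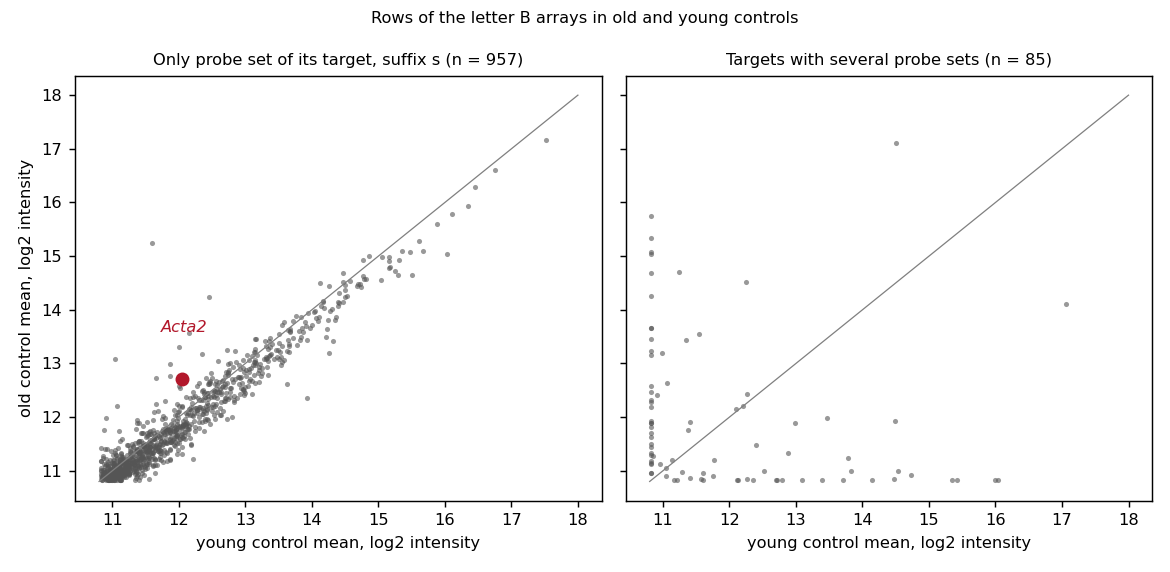
Mean log2 intensity in old controls (vertical axis) against young controls (horizontal axis) for tested rows of the letter B arrays, with a grey line of equality. The 957 suffix s rows that are alone for their target follow the line, with Acta2 (red) above it, while the 85 rows of targets with several probe sets do not.

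Of the 6 probe sets, 4 lay above background and 2 did not. Tagln (l41154_s_at), Acta2 (X13297_s_at) and Tpm1 (m22479_s_at) were above the floor on 15 of 15 arrays, and Cnn1 (l49022_s_at) on 14 of 15. With the floor doubled, the counts were 12 for Tagln, 13 for Acta2, 11 for Tpm1 and 4 for Cnn1, so Cnn1 lay closest to background. Tpm2 (m81086_s_at) and Myh11 (d85923_s_at) were above the floor on 0 of 15 arrays, also with the floor halved, and have no level here. The 4 genes above background were so in all 3 groups, and none entered the tests through 1 group alone. All 6 identifiers carry the suffix s, which in this array family marks probe sets that can match related sequences, so other actins, tropomyosins or calponins may add to these signals.

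Old control kidneys read higher than young control kidneys for the 4 measured genes, and the difference passed the test for 1 of them. Tagln was 1.67-fold higher (95% interval 1.31 to 2.12). The intervals of Acta2 and Tpm1 lay above no change but their adjusted p did not pass, and the interval of Cnn1 included no change. Acta2 passed with a replicate block, and Acta2 and Tpm1 passed with the number set as a term. In numbers 1 to 3 alone 0 of the 4 passed. Calorie-restricted kidneys read about as high as old controls for Tpm1 and higher for Acta2, with lower readings of Tagln and Cnn1, and none of these 4 differences passed. Against young controls, calorie-restricted kidneys had 1.89-fold more Acta2 RNA (1.31 to 2.75), a call that did not hold in many of the alternatives. In old against young controls 5.16% of all tested probe sets were called, 2.99% as higher, beside 1 of the 4 members. In calorie-restricted against young controls 5.71% were called, 2.94% as higher, again beside 1 of 4. Without the 85 letter B rows of targets with several probe sets, 3.38% were called in old against young controls, 2.17% as higher and still beside 1 of 4, and 3.81% in calorie-restricted against young controls, 1.99% as higher and beside 0 of 4. For calorie-restricted against old controls, 2.61% of all tested probe sets were called in either direction and 0 of the 4 members.

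Acta2, the actin of the smooth muscle thin filament, had scaled intensities of 7041, 9901, 11374, 7197 and 5890 in calorie-restricted animals 1 to 5. Old controls 1 to 5 had 7285, 10732, 8624, 4590 and 4412, and young controls 1 to 5 had 4393, 5180, 5176, 3506 and 3336. All 5 calorie-restricted kidneys lay above every young control, whereas old controls 4 and 5 lay within the young range and the other 3 above it. Groups without overlap, with the first higher, were found for 3.72% of all tested probe sets in calorie-restricted against young controls. The log2 change in that comparison was 0.92 ± 0.25 (SE, n = 5 per group, adjusted p = 0.0417, limma with Benjamini-Hochberg adjustment). Means were 8280 ± 2270 in calorie-restricted animals and 4318 ± 882 in young controls (SD, n = 5).

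The Acta2 call against young controls was lost in 14 of 29 alternatives, with adjusted p between 0.000917 and 0.108 over them. It did not hold without the 85 rows of targets with several probe sets (adjusted p = 0.0530), with quantile normalization (0.0520), or without any 1 of 10 of the 15 animals (calorie-restricted animals 1 to 4, old control 1 and each young control), although the change itself stayed between 0.80 and 1.03 in all 15 cases. Within number sets the change was 0.92 in numbers 1 to 3 and 0.93 in numbers 4 and 5, and the groups did not overlap in either set. With so few animals this is common, and 14.7% of all tested probe sets showed it in this direction in numbers 1 to 3 and 19.6% in numbers 4 and 5. Against young controls, Acta2 in old controls changed by 0.66 ± 0.25 (adjusted p = 0.182), and by 0.84 among numbers 1 to 3 and 0.40 among numbers 4 and 5, again with no overlap within a set, beside 9.87% and 18.6% of all tested probe sets. Across probe sets, the deviations of same-numbered old and young controls correlated with r above 0.1 in 5 of 5 pairs. In 0 of 5 was this r above that with every other number, and the labels do not pair them. With the replicate number as a block, the Acta2 comparison of old and young controls passed (adjusted p = 0.0105). With the number set as a term in the fit it gave adjusted p = 0.0137. In calorie-restricted against old controls the change was 0.26 ± 0.25 (95% interval -0.28 to 0.80, adjusted p = 0.686). That change was 0.08 in numbers 1 to 3 and 0.53 in numbers 4 and 5. In order of mean level, Acta2 thus ran calorie-restricted, old control, young control, while the medians of the first 2 groups were 7197 and 7285. Without a block or set term neither step between neighbours passed, and with either term only the step between old and young controls did. The step between calorie-restricted animals and old controls had adjusted p = 0.324 with the block and 0.362 with the set term (limma).

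Acta2 read lower in numbers 4 and 5 than in numbers 1 to 3 in every group, with log2 differences of -0.51 in calorie-restricted animals, -0.96 in old controls and -0.52 in young controls. These sets are the ones that differ in the 3′ to 5′ ratios, and the part of those ratios in the Acta2 values was not tested.

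Tpm1, a tropomyosin that lies along the actin filament, read 3221, 3155, 2626, 2329 and 2421 in calorie-restricted animals 1 to 5. Old controls read 2735, 3056, 2989, 2560 and 2274, and young controls 2461, 1710, 2073, 1578 and 2042. The highest young control, animal 1, lay above old control 5 and calorie-restricted animals 4 and 5, so that all groups overlapped. The log2 change was 0.47 ± 0.15 in old against young controls (95% interval 0.16 to 0.79, adjusted p = 0.0888). It was 0.48 ± 0.15 in calorie-restricted against young controls (0.17 to 0.80, adjusted p = 0.0721). Without young control 1 both comparisons passed, with changes of 0.56 (adjusted p = 0.0450) and 0.57 (adjusted p = 0.0407). They also passed with the number set as a term (adjusted p = 0.0251 and 0.0195). Within numbers 1 to 3 the changes against young controls were 0.51 in old controls and 0.54 in calorie-restricted animals, and within numbers 4 and 5 they were 0.43 and 0.40, with no overlap of these groups within a set, a pattern as common over all probe sets as given for Acta2. Calorie-restricted and old controls differed by 0.01 ± 0.15 (95% interval -0.31 to 0.33), an interval that leaves room for a difference of about that size in either direction.

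Tpm2, the second tropomyosin of smooth muscle, ranged from -134 to 198 in calorie-restricted animals, from -142 to 189 in old controls and from -94.2 to 137 in young controls. These readings lie around 0 and far below the floor of 1103, and the groups overlapped. No change is read from them.

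Tagln, which encodes transgelin, a protein that bundles actin filaments, read 3713, 2753, 2359, 2660 and 2970 in calorie-restricted animals 1 to 5. Old controls read 3008, 3413, 4485, 3629 and 3527, and young controls 2338, 2070, 2886, 1982 and 1655. Every old control lay above every young control, a pattern that 3.43% of all tested probe sets showed in this direction. Means were 3612 ± 542 in old controls and 2186 ± 461 in young controls (SD, n = 5), a log2 change of 0.74 ± 0.17 (SE, adjusted p = 0.0117). The change ranked 151 of 4518 by p. It was 0.57 in numbers 1 to 3 and 0.98 in numbers 4 and 5, without overlap in either set, which 9.87% and 18.6% of all tested probe sets showed in this direction. The call was kept in 29 of 30 alternatives and lost in numbers 1 to 3 alone, with 3 animals a group (adjusted p = 0.255).

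Calorie-restricted kidneys lay between both control groups for Tagln, with a mean of 2891 ± 510 (SD, n = 5). The diet difference from old controls was -0.33 ± 0.17 (95% interval -0.68 to 0.02, adjusted p = 0.386), and 4 of the 5 calorie-restricted animals lay below every old control, the exception being animal 1 with the highest value of its group. Against young controls the difference was 0.41 ± 0.17 (0.06 to 0.76, adjusted p = 0.194). Tagln thus ran old control, calorie-restricted, young control in level, and only the outer pair passed.

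Cnn1, calponin, which binds actin and holds back the myosin motor, had the largest SE of the 4 in the fit of all 3 groups, though not in the fit of old and young controls alone (0.19 beside 0.26 for Acta2). Calorie-restricted animals 1 to 5 read 2017, 1097, 4013, 1729 and 1250, of which animal 2 lay at the floor. Old controls read 1745, 2317, 2204, 2648 and 3160, and young controls 1601, 2106, 1215, 2007 and 1686. The calorie-restricted group held both the lowest and the highest reading of the 15, and the old controls lay above every young control in 4 of 5 animals. The log2 change in old against young controls was 0.49 ± 0.29 (95% interval -0.12 to 1.09, adjusted p = 0.440). In calorie-restricted against old controls it was -0.39 ± 0.29 (-0.995 to 0.22, adjusted p = 0.570), but 0.00 in numbers 1 to 3 and -0.98 in numbers 4 and 5. Against young controls it was 0.10 ± 0.29 (-0.51 to 0.70, adjusted p = 0.912), and -0.19 without calorie-restricted animal 3.

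Myh11, the motor of the thick filament and the member most closely tied to differentiated smooth muscle, gave negative readings on 15 of 15 arrays. They ranged from -2175 to -548 in calorie-restricted animals, from -3208 to -372 in old controls and from -2163 to -399 in young controls. Only 2.04% of the probe sets of the letter A table had a lower mean. A negative reading on this scale says that the probe set gave no measurable signal, not that the RNA was absent. Of the kidney epithelial markers on the arrays, 7 of 8 were above the floor often enough to be tested. Of the members, Acta2, Tagln and Cnn1 mark vessel wall here, with the motor protein unmeasured. Of the other smooth muscle and mural cell genes on the arrays, 12 of 26 were tested and are described below.

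**Figure D2:**
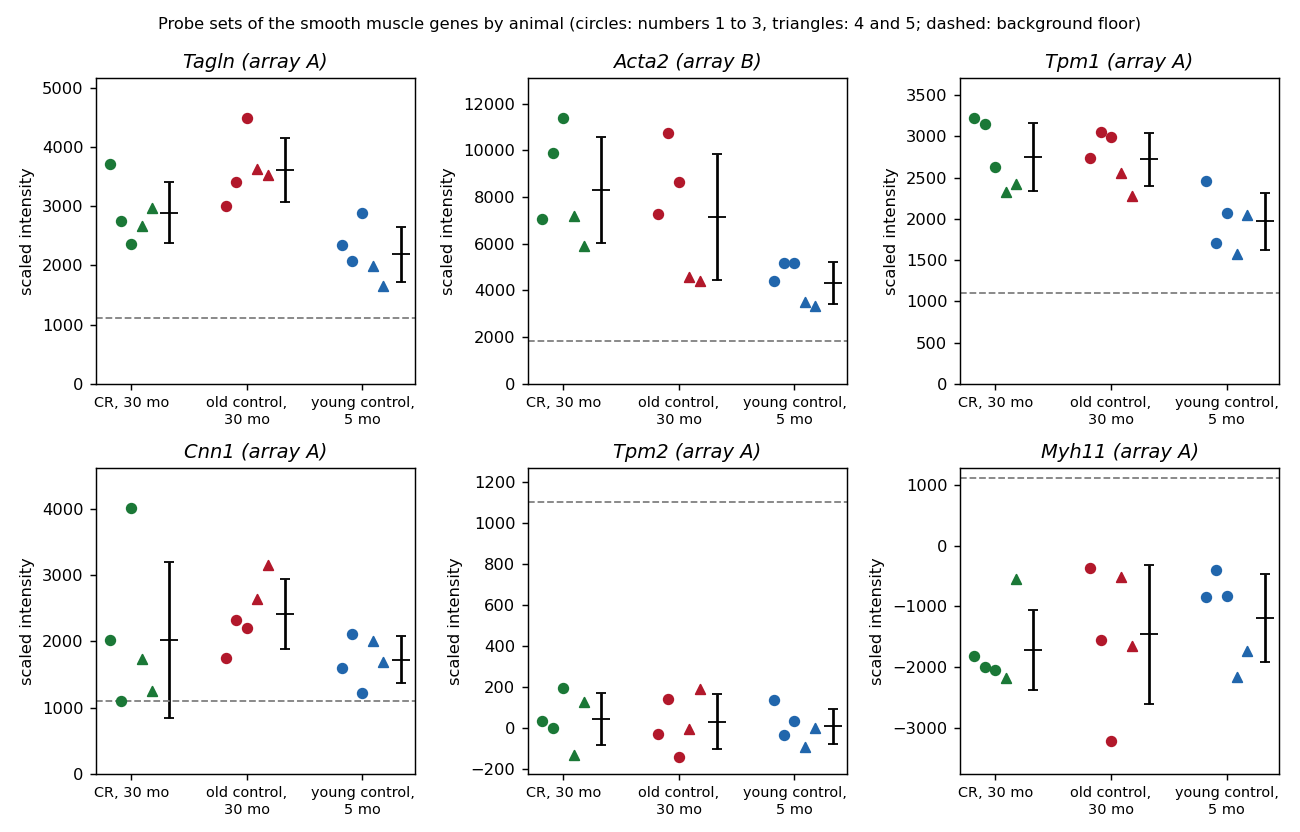
Scaled intensity (vertical axis) of the 6 probe sets in calorie-restricted animals, old controls and young controls, with 1 point per animal, circles for numbers 1 to 3 and triangles for numbers 4 and 5. The black bar is the group mean ± SD (n = 5) and the dashed line the background floor, above which Tagln, Acta2 and Tpm1 lie on every array and Tpm2 and Myh11 on none.

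**Figure D3:**
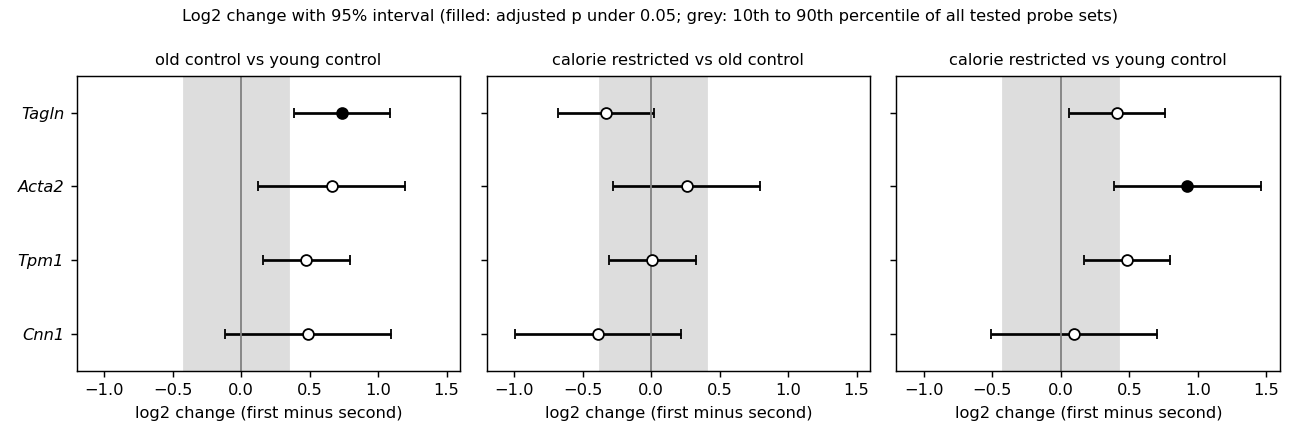
Log2 change (horizontal axis) of the 4 tested genes in the 3 comparisons, with 95% intervals from limma (n = 5 per group). Filled points, Tagln in old against young controls and Acta2 in calorie-restricted against young controls, have an adjusted p under 0.05. The grey band is the 10th to 90th percentile of the changes of all 4518 tested probe sets.

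As a group, the 4 genes had a median log2 change of 0.57 in old against young controls, beside a median of -0.04 and a 90th percentile of 0.35 over all tested probe sets. The members were chosen with earlier results of these data known, so an excess over all tested probe sets is a description, not a test. At an unadjusted p of 0.05, 3 of the 4 were higher (Tagln, Tpm1 and Acta2), beside 7.04% of all tested probe sets that were higher by this rule. In calorie-restricted against young controls the median was 0.45 beside -0.01, with the same 3 genes higher by the unadjusted rule and 9.01% of all. The comparisons with young controls share those animals, and both are given side by side. In calorie-restricted against old controls the median was -0.16 beside 0.03, with 0 of 4 past the unadjusted rule and 14.6% of all past it in either direction. Of the 4, the difference from young controls passed for Tagln in old controls and for Acta2 in calorie-restricted animals, and in the diet comparison Tagln and Cnn1 read lower, Acta2 higher and Tpm1 level, with no test passed.

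Whether these genes moved together was also asked from animal to animal, with group means removed. Over 15 animals the 6 pairs had a median Pearson r of 0.03 and a range of -0.32 to 0.46, and none passed (lowest adjusted p = 0.459 for Pearson and 0.267 for Spearman, permutation test, two-sided, 6 pairs). The highest r was that of the thin filament partners Acta2 and Tpm1 (r = 0.46, permutation p = 0.0828, Spearman rho = 0.46, permutation p = 0.0890, n = 15), which became 0.31 without the 2 animals farthest from the Acta2 median. That value rests on the number sets, since both genes were lower in numbers 4 and 5, and with set means also removed r was -0.33 (permutation p = 0.229). In that step the 2 deviations of numbers 4 and 5 in a group are equal and opposite, so its p is not reliable. Tagln and Acta2 had r = 0.06 (permutation p = 0.822, rho = -0.08, permutation p = 0.781, n = 15).

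Within numbers 1 to 3, the 6 pairs ran from -0.49 for Tpm1 with Cnn1 to 0.52 for Tagln with Tpm1 (n = 9, exact permutation p = 0.174 and 0.158). Spearman rho for these pairs was -0.43 and 0.65, with exact permutation p = 0.250 and 0.0666. Within numbers 4 and 5 they ran from -0.67 for Tpm1 with Cnn1 to 0.78 for Acta2 with Cnn1 (n = 6, exact permutation p = 0.156 and 0.0667), with rho of -0.54 and 0.71 and exact permutation p = 0.297 and 0.136. With 2 animals a group, the 2 deviations of a group are equal and opposite. The 6 values are therefore not independent, and the p-values of this set are not reliable. Without the 2 animals farthest from the Acta2 median, calorie-restricted animals 4 and 5, the r of Acta2 with Cnn1 was 0.11 over 4 animals. No pair passed in either set after adjustment over its 6 pairs, where the lowest adjusted p was 0.313 for numbers 1 to 3 and 0.361 for numbers 4 and 5. A shared rise and fall of the 4 genes within groups was therefore not detectable in these samples.

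**Figure D4:**
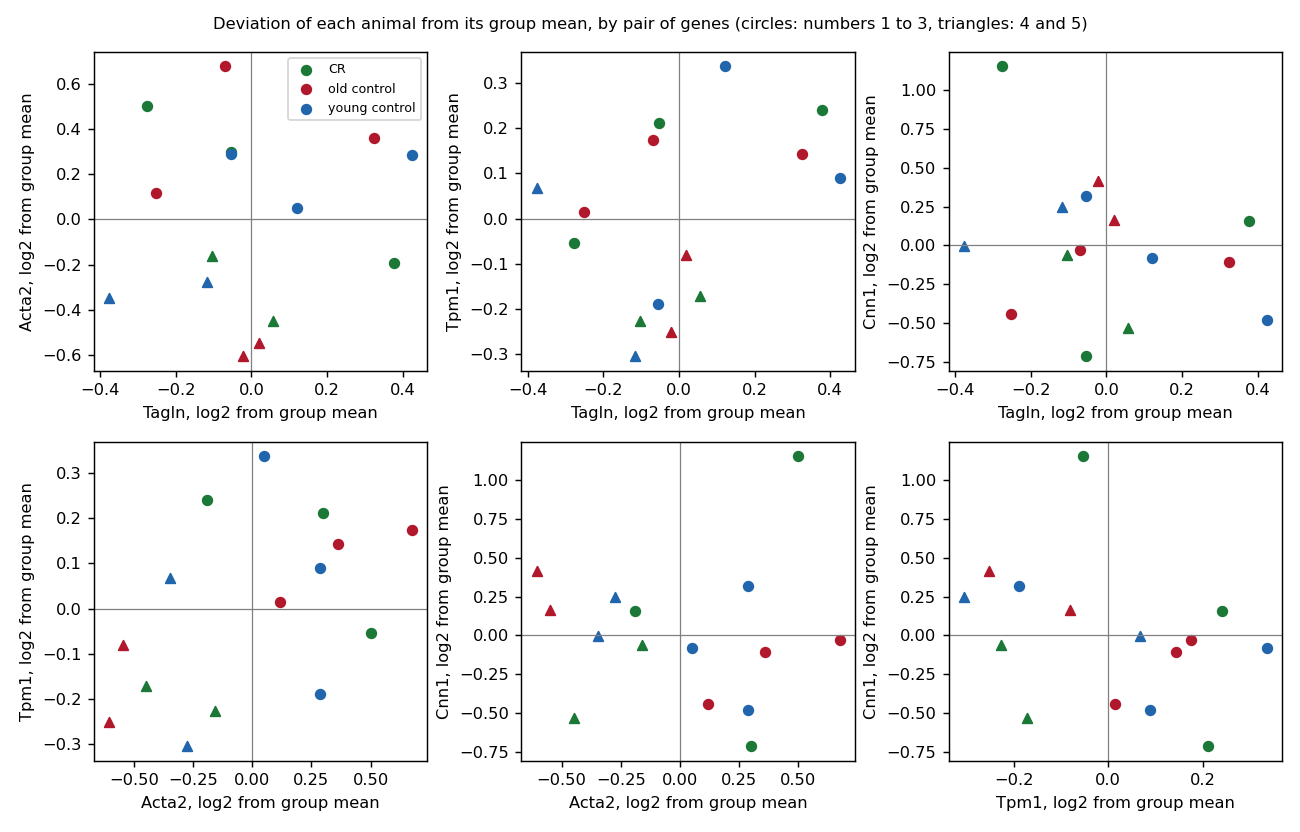
Deviation of each animal from its group mean (log2 scale) for the 6 pairs of measured genes, coloured by group, with circles for numbers 1 to 3 and triangles for numbers 4 and 5. Pearson r over 15 animals lies between -0.32 and 0.46, and the triangles lie low for Acta2 and mostly low for Tpm1.

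The genes whose deviations were most like the mean standardized deviation of the 4 members were sought among 2438 named probe sets of other genes. The highest Pearson r over 15 animals were 0.93 for Plxnb2, a semaphorin receptor, 0.91 for Mettl17, 0.91 for Dnajc21, 0.90 for Pde1b, a calcium-dependent phosphodiesterase, 0.89 for Hira, a histone chaperone, and 0.88 for Pgrmc2. With set means removed, r was 0.92 for Plxnb2 and Pde1b, 0.82 for Hira, 0.80 for Dnajc21, 0.63 for Mettl17 and 0.58 for Pgrmc2. These values describe the best of many probe sets, and the median r over all of those sought was 0.15. Of the 6, Mettl17 passed in calorie-restricted against young controls (1.20, adjusted p = 0.0382) and 0 passed in the other comparisons.

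Other genes of smooth muscle and mural cells, 48 in a list drawn up with earlier results of these data known, gave few calls. On the arrays were 26 of them, and 12 were tested, among them Actg2 (the actin of gut smooth muscle), Csrp1, Crip1, Tpm4, Notch3 and Pdgfrb (receptors of mural cells). In old against young controls 0 of 12 passed, with a median change of 0.05 beside -0.04 over all tested probe sets. Named after their values were seen, Actg2 read -0.04, Notch3 -0.31, Pdgfrb 0.06, Csrp1 0.05 and Tpm4 0.36. In calorie-restricted against old controls 0 passed and the median was -0.04. Against young controls the 1 that passed was Fhl1, a LIM-domain protein of muscle, which was lower (-0.72 ± 0.14, adjusted p = 0.00393). The smooth muscle markers Des, Mylk, Kcnmb1 and Rgs5 were on the arrays but not above the floor on enough of them to be tested.

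The median r of these 12 genes with the members' mean deviation was 0.11, with a range of -0.63 to 0.85, close to the median of 0.15 above. Summed intensities of the 12 overlapped between groups, at 32112.5 to 37201 in calorie-restricted animals, 33118 to 38420 in old controls and 34180 to 39040.5 in young controls.

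Genes of the non-muscle actin skeleton gave 2 of 19 higher in old against young controls, beside 2.99% of all tested probe sets. The share was 2.17% in the refit without the 85 letter B rows of targets with several probe sets, which the lists leave out. The 2 higher genes were Tmsb10 (0.83 ± 0.13, adjusted p = 0.000565), a thymosin that holds actin monomers, and Msn (0.77 ± 0.16, adjusted p = 0.00736), moesin, which ties actin to the cell membrane. With the diet 2 of 19 were lower than in old controls, beside 2.61% of all tested probe sets called in either direction. They were Tmsb10 (-0.83 ± 0.13, adjusted p = 0.00193) and Myl12b (-0.50 ± 0.11, adjusted p = 0.0154), a regulatory light chain closely related to Myl9. Myl12b was also lower than in young controls (-0.43 ± 0.11, adjusted p = 0.0203). The cytoplasmic actins Actb and Actg1, also named after their values were seen, read 0.48 and 0.28 in old against young controls. In calorie-restricted against old controls they read -0.58 and -0.38, and none of these changes passed the test. In that diet comparison the list had a median of -0.07, with changes from -0.83 (Tmsb10) to 0.55 (Actn4). The difference of the actin changes from that of Acta2 was not tested.

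Lists for other cell types were read in the same kidneys, and the shares called over all tested probe sets are given first. They were 5.16% in old against young controls (2.99% higher), 2.61% in calorie-restricted against old controls and 5.71% in calorie-restricted against young controls (2.94% higher). Refitted without the 85 letter B rows that the lists leave out, they were 3.38% in old against young controls (2.17% higher). In calorie-restricted against young controls that refit gave 3.81% (1.99% higher). Skeletal and heart muscle genes had 0 of 8 called in each comparison, and 16 more on the arrays, among them Acta1, Mylpf, Myl1 and Tnnt3, were not above the floor often enough to be tested. Endothelial genes had 0 of 7 called, with medians of 0.02 in old against young controls and 0.18 in calorie-restricted against old controls, and the marker Pecam1 was not tested. Of 15 fibroblast and matrix genes, 4 were higher in old than in young controls, namely Mgp (1.53 ± 0.22), Bgn (1.21 ± 0.29), Dcn (0.83 ± 0.21) and Thbs1 (0.70 ± 0.19). Of these Mgp was lower with the diet than in old controls (-0.91 ± 0.22), and Thbs1, the secreted protein thrombospondin, was higher in calorie-restricted than in young controls (0.80 ± 0.19, adjusted p = 0.0147), as Acta2 was. In the kidney epithelium list 1 of 7 was called, Calb1 (-0.67 ± 0.17 in old against young controls), and in the fat list 1 of 4, Lpl (-0.92 ± 0.17 in old and -1.21 ± 0.17 in calorie-restricted against young controls). Of 4 tested targets of transforming growth factor beta and serum response, 0 were called. Their medians were 0.10 in old against young controls and 0.09 in calorie-restricted against young controls. In these comparisons Ccn2, which both can induce, read 0.46 and 0.60, and Egr1 0.10 and 0.29. Igfbp7 read 0.11 and -0.11, and Igfbp3 -0.03 and -0.28.

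Leukocyte genes moved with the groups. Of 14 tested, 11 were higher in old than in young controls, with a median of 1.28. Of all tested probe sets 2.99% were higher, or 2.17% in the refit without the 85 rows. In calorie-restricted against old controls 9 of the 14 leukocyte genes were lower (2.61% of all called in either direction), with a median of -1.03. Those with the smallest p in old against young controls were Jchain (2.88 ± 0.18), Cd74 (1.77 ± 0.16), Ighm (3.66 ± 0.36), Igha (4.54 ± 0.48), Ctss (1.61 ± 0.17) and H2-Ab1 (2.04 ± 0.25). The summed intensity of the 14 was 56068 to 84887 in calorie-restricted animals, 151509 to 252848 in old controls and 42973 to 51963.5 in young controls. The matrix list summed to 69187 to 88985 in calorie-restricted animals, 83671 to 108911 in old controls and 64428 to 77710 in young controls. Tagln was higher in the group in which both sums were high, and the part of these cells in the Tagln reading was not tested. For Acta2 the highest mean was in calorie-restricted animals, but the difference from old controls did not pass, and the medians were 7197 and 7285. The part of these cells in the Acta2 reading was not tested either.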

How the data were processed

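Kidney RNA of 15 numbered animals was read from 2 tables of deposited intensity values, whole numbers per probe set that can be negative. How the authors computed and background-corrected them is not given in the sources used here, and the arrays had been scaled before deposit, as the values show by trimmed means of 1463 to 1504. For each table the arrays were brought to a common 2% trimmed mean (factors 0.997 to 1.01), floored and log2-transformed. The 61 control probe sets of each table and 77 rows blank on young arrays were left out. Symbols came from array annotation (7561 probe sets with 1 symbol), updated by gene number with RefSeq names for 7544. The tables were normalized separately and stacked by animal. A single limma model (version 3.58.1, R 4.3.3) held the 3 groups, p-values were adjusted by Benjamini-Hochberg over the 4518 tested probe sets, with a threshold of 0.05, and the fit was tested on simulated data. Lists used the brightest tested probe set of a gene, without the rows of targets with several probe sets in the letter B table.

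Correlations used permutation tests of 100000 resamples, or exact ones under 10 animals. They treat deviations from means as independent between animals, which deviations within small groups are not. Named were all members, up to 6 called genes of a list and the 6 most alike genes. Members and lists were chosen with earlier results of these data known. Same-numbered animals of different groups are not paired by the labels, and the reported fit has no block. Deviations of same-numbered old and young controls correlated with r of 0.21 to 0.49, above 0.1 in 5 of 5 pairs, so a blocked value stands beside that comparison where it changes a call. With calorie-restricted animals r was above 0.1 in 4 of 5 pairs for either control group. Alternatives were other scalings, floors, filters and transforms, other moderation, separate fits, a replicate block, number sets and leaving out each animal. Leaving out only the rows of targets with several probe sets was chosen after seeing the data. Figures were drawn with matplotlib 3.10.9.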

Additional observations from a re-analysis of the deposited data

Results flagged for a closer look

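Calorie-restricted animal 5 had a Myh11 reading of -548, far from the other 4 of its group, of which the nearest was -1818. The gap was 0.780 of the group's range. All these readings are below 0, so no level is read from them. Of the 18 groups of member values examined, this was the 1 that stood out, and chance gives about 1 in 20. The same animal had the highest Gapdh 3′ to 5′ ratio.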

How the results depend on the processing

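The Tagln difference between old and young controls kept its direction in 30 of 30 alternatives (0.57 to 0.98). The number of probe sets called was 233 in old against young controls, 118 in calorie-restricted against old controls and 258 in calorie-restricted against young controls. Without the suffix classes i, f, s and r of the letter B table, which removes Acta2, these counts were 62, 32 and 110. Without the rows of targets with several probe sets the first and last were 150 and 169. The set term gave 224 and 439 for the last 2, and numbers 4 and 5 alone gave 25 and 131. The count for calorie-restricted against old controls was 238 in numbers 1 to 3 alone, 50 when at least 10 arrays had to pass the floor and 70 when only the groups compared were fitted. Leaving out each animal gave 158 to 249, 66 to 116 and 170 to 266 in the 3 comparisons.

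Members called in old against young controls numbered 3 with the set term (349 of all tested probe sets), 0 in numbers 1 to 3 alone (166 of all) and 1 to 2 with an animal left out (158 to 249 of all). In calorie-restricted against young controls they numbered 2 with the set term (439 of all) and 0 to 1 with an animal left out (170 to 266 of all). They numbered 0 with the floor halved (275 of all), with no filter (250), without the suffix classes (110) and without the rows of several probe sets (169). In calorie-restricted against old controls 0 were called in 30 of 30 alternatives. The labels do not say what the replicate numbers mean, and the r of same-numbered animals was above that with every other number in 0 of 5 old and young pairs, 2 of 5 calorie-restricted and old pairs and 3 of 5 calorie-restricted and young pairs. With the replicate block, 2 members of 277 probe sets were called in old against young controls, Acta2 passing with adjusted p = 0.0105 (limma), and 2 of 325 in calorie-restricted against young controls, Tpm1 passing with adjusted p = 0.0449. The block changed no other call of a member. The median correlation between members, 0.03, was -0.32 with the set term and -0.35 in numbers 1 to 3 alone, and lay between -0.03 and 0.10 with an animal left out.

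Some changes turned in sign. Tpm1 in calorie-restricted against old controls was -0.023 in numbers 4 and 5 alone and -0.0532 to 0.0665 with an animal left out. Cnn1, at -0.39 in that comparison over all animals, was 0.0263 in numbers 1 to 3 alone. There the scaling and floor were set anew, whereas the 0.00 given above for these numbers used those of all animals. Against young controls Cnn1 in calorie-restricted animals was -0.32 in numbers 4 and 5 alone and -0.19 to 0.27 with an animal left out. The cause was not tested. Alternatives with fewer animals or probe sets also change the adjustment. Background limits Cnn1 most and leaves Tpm2 and Myh11 without a level.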
